A study of Capra hircus with 4 samples.

Results

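KITLG and KIT, the genes of KIT ligand and of its receptor, were followed through the nuclei of 4 goat ovaries. They are 2 of the 28944 genes in the count matrices and were both detected in all 4 libraries. They were chosen by symbol and by no cut on their values, though earlier results of these data were known.

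KIT ligand, also called stem cell factor, is made as a membrane-bound protein that proteases can release from the cell surface. It binds KIT, a receptor tyrosine kinase of the type III class, and the activated receptor passes the signal to the PI3K-AKT, RAS-MAPK and JAK-STAT pathways. In the mammalian ovary granulosa cells (GCs) are known as the source of the ligand, and oocytes and theca cells as bearers of the receptor, and the pair is best known for its part in primordial follicle activation. KIT is also a long-known gene of mast cells, germ cells and melanocytes.

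The ovaries came from 2 Nubian goats (Capra hircus), the polytocous group with a litter size of at least 3, and 2 Du'an goats, the monotocous group with a litter size of 1. All 4 goats were about 3 years old and had received progesterone (300 mg) for 17 days from an intravaginal device (CIDR), with no other hormone given to raise the ovulation rate. Each goat gave 1 library of single-nucleus RNA sequencing, so the goat was the replicate, and anything that the goats of a breed shared cannot be told apart from the breed. The labels name no batch.

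The libraries held 9364 to 16988 nuclei and between 40573246 and 71613892 unique molecular identifiers (UMIs, each counting 1 captured transcript), and 44734 of 48332 nuclei passed the filters. The doublet caller marked nuclei in 1 library only (151 in Du'an replicate 2), so doublets largely remained. Mural-like GCs were missing from Du'an replicate 1, progenitor-like GCs made up 36.3% and 32.5% of the kept nuclei of Du'an replicate 1 and Nubian replicate 2 but 2.63% and 4.16% of the other two, and most granulosa subclusters came largely from 1 goat. The libraries shared few cell barcodes, at most 1.4% of the smaller library of a pair.

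Nuclei were clustered without KITLG, KIT, the pathway genes named here or the cell type markers. Clusters outside the granulosa set were named from marker genes, and 4878 nuclei (10.9%) stayed unnamed. The granulosa set was named from the genes in the deposited subtype table, without the genes left out of the clustering, as progenitor-like, cumulus-like and mural-like GCs, with cycling GCs kept apart. Levels are in CPM (counts per 1000000 UMIs of the class in a goat, mean over goats). In cumulus-like GCs FSHR, the receptor of follicle-stimulating hormone, stood at 3617 CPM. In mural-like GCs the aromatase gene CYP19A1 stood at 3018 and the luteinizing hormone receptor gene LHCGR at 2117. The authors named mural GCs by CYP19A1 and LHCGR on these same nuclei, so these levels are no separate check of the names. In progenitor-like GCs the granulosa markers were mixed. FSHR was at 952 CPM there against 469 in smooth muscle-like nuclei and 242 in theca-like nuclei. NR5A2, which encodes a nuclear receptor of granulosa cells, was at 580 against 325 and 235 in these classes, with overlap between goats. FST (107 against 126 in smooth muscle-like nuclei) and CYP19A1 (72.0 against 199) were not above the smooth muscle-like level. The smooth muscle-like CYP19A1 level ran from 5.70 to 509 between goats. Macrophage-like nuclei too had FSHR at 298, NR5A2 at 213 and CYP19A1 at 141 (0 to 387). What free RNA in the droplets adds to these levels was not tested. DMD, a stromal marker, was at 78.1 in progenitor-like GCs and at 1690 in smooth muscle-like nuclei. The name progenitor-like was given from the deposited table, and FST and CYP19A1 do not set the state apart from smooth muscle-like nuclei while DMD does. FSHR does so narrowly, with goats at 546 to 1254 against 395 to 542. A low DMD level is not particular to granulosa nuclei, as macrophage-like nuclei had 93.4.

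The 4 libraries held 68245 UMIs of KITLG (14291 to 20770 per library) and 11021 UMIs of KIT (1961 to 4114 per library). Among kept nuclei there were 53292 UMIs of KITLG and 7136 of KIT. KITLG was spread over all 4 granulosa states, with 28.0% of its kept UMIs in mural-like, 27.7% in progenitor-like, 21.4% in cumulus-like and 7.61% in cycling GCs. Over all goats, KIT was concentrated in a single state: progenitor-like GCs held 59.2% of its kept UMIs while making up 16.6% of kept nuclei. Shares of nuclei leave out depth, as the 4 granulosa states were 48.3% of kept nuclei but held 68.8% of all kept UMIs. Cumulus-like GCs held 15.3% of the KIT UMIs and mural-like GCs 2.83%. The share in progenitor-like GCs was 79.3% and 35.1% for Du'an goats, 42.1% and 67.1% for Nubian goats, in the same order of goats as their shares of progenitor-like nuclei. Levels are therefore given below as CPM of the class in each goat, which do not depend on how many nuclei of the class a goat had.

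For the ligand, mural-like GCs stood first in the order of the class means, at 681 ± 540 CPM (SD, n = 3 goats). The KITLG level there was 326 in Du'an replicate 2, 415 in Nubian replicate 1 and 1302 in Nubian replicate 2, so the mean rested on the last goat. These nuclei fell into different subclusters in different goats, subclusters 1 and 11 in Nubian replicate 1, 9 in Du'an replicate 2 and 13 in Nubian replicate 2. Progenitor-like GCs came next with 489 and 545 in Du'an goats, 591 and 284 in Nubian goats, with Nubian replicate 2 the lowest. Cycling GCs had 535 and 409 in Du'an goats, 290 and 384 in Nubian goats. Cumulus-like GCs had 462 and 314 in Du'an goats, 220 and 449 in Nubian goats. The 4 granulosa states therefore overlapped in KITLG when the goats were set side by side.

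Outside the granulosa set, KITLG means were 386 in ciliated-like nuclei (n = 2), 350 ± 202 in epithelial-like, 281 ± 70.0 in blood endothelial-like and 228 ± 61.1 in pericyte-like nuclei (n = 4 each). Lower still were smooth muscle-like (105), lymphatic endothelial-like (86.5), fibroblast-like (77.1, 1 goat), theca-like (66.3), macrophage-like (54.4) and T or natural killer-like nuclei (51.4). The last class, which should lack the ligand, serves as a background and ranged from 35.3 to 91.5 between goats. What free RNA in the droplets adds to the levels of this class or the others was not tested. The KITLG means of lymphatic endothelial-like, fibroblast-like, theca-like and macrophage-like nuclei lay within that range.

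For the receptor, the order was another. KIT was highest in progenitor-like GCs, with 122 and 296 CPM in Du'an goats, 257 and 69.4 in Nubian goats (186 ± 108, n = 4). In every goat that level was above those of cumulus-like, mural-like and cycling GCs. Cumulus-like GCs had 31.0 and 25.4 in Du'an goats, 42.8 and 34.1 in Nubian goats (33.3 ± 7.25). Cycling GCs had 23.9 and 9.95 in Du'an goats, 11.2 and 41.7 in Nubian goats (21.7). Mural-like GCs, first for the ligand, were next to last for the receptor, with 4.99 in Du'an replicate 2, 6.76 in Nubian replicate 1 and 2.46 in Nubian replicate 2 (50, 147 and 5 UMIs).

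Theca-like nuclei, a known site of the receptor, had KIT at 16.3 and 90.8 CPM in Du'an goats, 58.1 and 62.8 in Nubian goats (57.0 ± 30.8). These values rest on few molecules, 2, 40, 12 and 20 UMIs, and the exact 95% Poisson interval of the lowest ran from 1.97 to 58.9. Blood endothelial-like nuclei had 87.3 and 38.7 in Du'an goats, 50.7 and 49.6 in Nubian goats (56.6 ± 21.2). T or natural killer-like nuclei had 73.6 and 24.6 in Du'an goats, 18.1 and 37.1 in Nubian goats (38.3). The remaining means were 39.1 in fibroblast-like nuclei (1 goat), 19.5 in smooth muscle-like, 14.9 in epithelial-like, 13.8 in pericyte-like, 11.6 in macrophage-like, 8.09 in lymphatic endothelial-like and 3.87 in ciliated-like nuclei (n = 2). Macrophage-like nuclei, which should lack KIT, ranged from 6.38 to 19.4, so mural-like GCs were at or under that background.

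**Figure D1:**
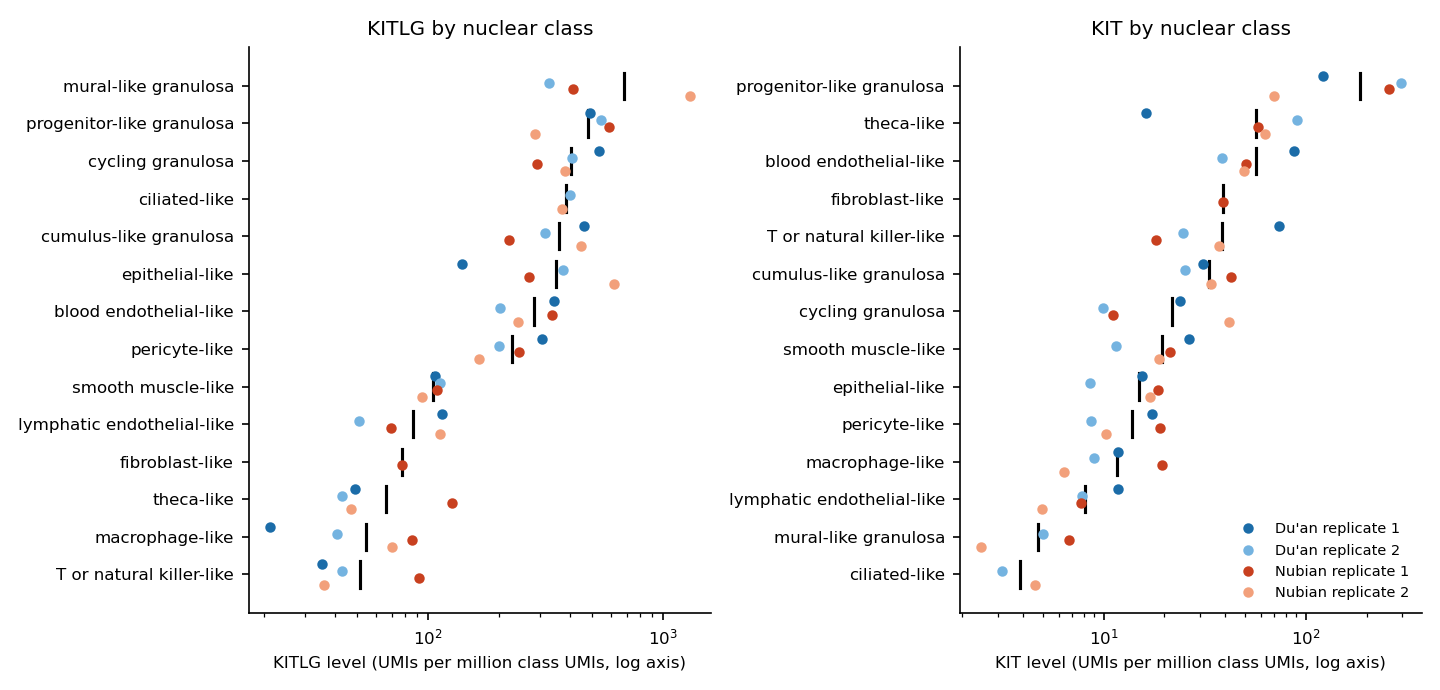
KITLG (left) and KIT (right) by nuclear class, as UMIs scaled to 1000000 UMIs of the class on a log axis. Each point is 1 goat, and the black bar is the mean over goats. For KITLG the granulosa states lie among the highest classes and overlap, with Nubian replicate 2 far to the right in mural-like granulosa (1302), whereas for KIT progenitor-like granulosa lies at the top (mean 186) and mural-like granulosa near the bottom (4.74).

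The order was tested in 1 edgeR quasi-likelihood fit of UMIs summed per goat and class (50 sums, 14 classes, 15915 genes, goat as a block), with Benjamini-Hochberg adjustment over all genes. A gene was called at an adjusted p under 0.05, and each difference is a log2 ratio with its SE, averaged over log levels of classes. In this fit 4187 genes had no UMI in at least 1 class, and such genes were called less often (12.7% against 62.5% of the others in the comparison of the granulosa states with the other classes). KITLG and KIT had UMIs in every class.

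KITLG was higher in the 4 granulosa states than in the other 10 classes, at 469 against 163 CPM (mean over goats). The difference was 2.05 ± 0.175, or 4.15-fold (edgeR adjusted p = 1.27e-13), and held in 4 of 4 goats. KIT was higher too, at 64.8 against 26.6, by 0.75 ± 0.21 (1.68-fold, edgeR adjusted p = 0.00259), in 4 of 4 goats. This KIT mean rested on progenitor-like GCs (186), as cumulus-like GCs were at 33.3 and cycling (21.7) and mural-like GCs (4.74) below 26.6. With RLE factors in place of TMM, the KIT difference was 0.51 and no longer called (adjusted p = 0.0531). In this comparison 49.4% of all genes were called, so a call by itself set neither gene apart. The factors matter here because they moved the median of all genes from 0.06 to -0.18. Both genes lay above those medians with either set of factors. A change of factors shifts all genes largely alike, so this gives no separate support.

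Single classes were then set against all others. Progenitor-like GCs were 10.9-fold higher in KIT (log2 difference 3.44 ± 0.229, edgeR adjusted p = 3.75e-16), higher in 4 of 4 goats, in a comparison that called 26.3% of genes. Mural-like GCs were 4.66-fold higher in KITLG (2.22 ± 0.262, edgeR adjusted p = 3.44e-09), in 3 of 3 goats, and 3.74-fold lower in KIT (-1.90 ± 0.398, edgeR adjusted p = 0.000179), and 31% of genes were called. KIT was also higher in blood endothelial-like nuclei, by 1.42 ± 0.285 (edgeR adjusted p = 0.000103), in 3 of 4 goats and with 27.7% of genes called. In theca-like nuclei KIT was higher by 1.44 ± 0.365 (edgeR adjusted p = 0.00385), in 3 of 4 goats and with 16.1% of genes called. Without Du'an replicate 2, the goat with 40 of the theca-like KIT UMIs, that difference was 0.90 and not called (adjusted p = 0.245). In cumulus-like GCs KIT was called higher by 0.73 ± 0.27 (edgeR adjusted p = 0.0306), but in 1 of 4 goats and with 34.9% of genes called. KIT was called lower in lymphatic endothelial-like and macrophage-like nuclei, with 24.7% and 49.3% of genes called.

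Neighbours in the order of the levels mostly could not be separated. The order was taken from these same levels, so neighbours were close by construction and few calls were likely. Of 13 pairs of neighbouring classes for KITLG, 0 were called by edgeR and 0 by DESeq2, while edgeR called 6.79% to 39.5% of all genes in a pair. The nearest was pericyte-like against smooth muscle-like nuclei, at 1.05 ± 0.405 (unadjusted p = 0.0133, adjusted p = 0.129), and it was the 1 pair with an unadjusted p under 0.05. Of 13 pairs for KIT, 1 was called, progenitor-like GCs over theca-like nuclei by 1.85 ± 0.416 (edgeR adjusted p = 0.000833), where 18.6% of all genes were called. From theca-like nuclei down to ciliated-like nuclei no step of the KIT order was called, while 6.86% to 51.9% of all genes were called at a step.

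Between the granulosa states, KIT differed in most pairs and KITLG in none. Against progenitor-like GCs, KIT fell by 2.52 ± 0.37 in cumulus-like GCs (5.72-fold, edgeR adjusted p = 1.09e-06), lower in 4 of 4 goats and with 17.2% of genes called. It fell by 4.96 ± 0.481 in mural-like GCs (31.2-fold, edgeR adjusted p = 1.75e-10), lower in 3 of 3 goats and with 20.1% of genes called. It fell by 3.16 ± 0.399 in cycling GCs (8.96-fold, edgeR adjusted p = 2.23e-08), lower in 4 of 4 goats and with 23.5% of genes called. The progenitor-like state thus stood above each other granulosa state in the receptor.

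Mural-like GCs were also 5.45-fold below cumulus-like GCs in KIT (-2.45 ± 0.44, edgeR adjusted p = 6.04e-05), in 3 of 3 goats, where 12.6% of genes were called. Cycling GCs were above mural-like GCs by 1.80 ± 0.454 (edgeR adjusted p = 0.00423), in 3 of 3 goats, where 12.3% were called. Without Nubian replicate 2 this last difference was 1.02 and not called (adjusted p = 0.205). Cycling and cumulus-like GCs were not told apart (-0.65 ± 0.377, edgeR adjusted p = 0.389), in a comparison that called 6.86% of genes. This difference was called in 1 of 14 alternative settings. Cumulus-like GCs were above the macrophage-like range of KIT in every goat, cycling GCs in 2 of 4, and what free RNA adds to these levels was not tested.

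For KITLG, the difference of mural-like from progenitor-like GCs was 0.55 ± 0.397 (edgeR adjusted p = 0.396). It turned to -0.41 without Nubian replicate 2, and mural-like GCs were higher in 1 of 3 goats. Mural-like GCs were above cumulus-like GCs in 3 of 3 goats, by 1.00 ± 0.393, which missed the threshold (edgeR adjusted p = 0.0925). Cumulus-like minus progenitor-like GCs gave -0.45 ± 0.362 (adjusted p = 0.473) and cycling minus mural-like GCs -0.84 ± 0.396 (adjusted p = 0.19). With standard errors of this size, the comparisons do not show that the states were alike in the ligand.

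KIT was not even within the progenitor-like state. It comprised 5 subclusters, and 2 of these, numbered 3 and 14 and singled out after their values were seen, held most of the receptor. Subcluster 3 (2172 nuclei) was led by RBMS3, NTM, FAM163A, ADGRD1, GABRA4, MMP17 and RUNX2, the last encoding a transcription factor of the RUNT family. Subcluster 14 (274 nuclei) was led by ADAM12 and ADAMTS14, which encode metalloproteinases, and held CBLN2, FN1 (fibronectin) and LGR5 among its leading genes. Together they were 5.47% of kept nuclei and held 49.8% of the kept KIT UMIs, and 84.2% of those in progenitor-like GCs. Their nuclei were deep, with medians of 4817.5 and 4411 UMIs, which a share of nuclei leaves out.

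In subcluster 3 the KIT level was 223 and 275 CPM in Du'an goats, 226 and 293 in Nubian goats (254 ± 34.9, n = 4). In subcluster 14 it was 341 and 334 in Du'an goats, 431 and 361 in Nubian goats (367 ± 44.3). All 8 values were above every KIT level of the other subclusters. The breeds overlapped in subcluster 3. In subcluster 14 both Nubian goats were above both Du'an goats, but the values 341 and 361 rest on 54 and 64 UMIs. The share of all genes without overlap was not computed for subclusters, and it was 23.8% in progenitor-like GCs. The other 3 progenitor-like subclusters were lower. Subcluster 6, almost all from Nubian replicate 2, had 28.1 in that goat, and subcluster 8, almost all from Du'an replicate 1, had 34.7 in that goat. Subcluster 7 was shallow, with a median of 912 UMIs per nucleus.

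The ligand separated the 2 KIT-rich subclusters. KITLG in subcluster 3 was 630 and 937 in Du'an goats, 695 and 279 in Nubian goats (635 ± 272), whereas in subcluster 14 it was 310 and 149 in Du'an goats, 142 and 96.0 in Nubian goats (174 ± 93.3). In each of the 4 goats the ligand was higher in subcluster 3 and the receptor was higher in subcluster 14. As these subclusters were chosen by eye, no test is given. FSHR in subcluster 3 was 1008 (702 to 1175) and in subcluster 14 it was 439 (220 to 889), against 469 (395 to 542) in smooth muscle-like nuclei. FSHR therefore did not set subcluster 14 apart from smooth muscle-like nuclei, but the stromal markers did. DMD was at 124 (56.8 to 227) in subcluster 14 against 1690 (876 to 2170) in smooth muscle-like nuclei. NR2F2 was at 56.9 against 332 and DCN at 85.4 against 297, with no overlap between goats in either. Among the named granulosa subclusters, however, subcluster 14 had the lowest mean FSHR and the highest means of DCN and NR2F2. The next were DCN at 39.2 in subcluster 7 and NR2F2 at 39.5 in subcluster 5, with goats overlapping. DMD was higher in several other subclusters, such as subcluster 11 (319). Low levels are not particular to granulosa nuclei, as macrophage-like nuclei had DCN at 20.2 and NR2F2 at 13.5. Against theca-like nuclei, subcluster 14 overlapped in FSHR (179 to 358 there), DCN (14.5 to 163), NR5A2, FST, CYP19A1 and PTCH1. CYP11A1, a theca marker, overlapped too, at 158 (102 to 215) against 299 (171 to 440). DMD (1238 to 2687 in theca-like nuclei), NR2F2 (228 to 521) and LHCGR (554 to 2401, against 0 to 224) did not overlap.

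Among the mural-like subclusters, subcluster 13 carried the high ligand level of Nubian replicate 2. It held 373 nuclei, 372 of them from that goat, and its KITLG level there was 1342 with KIT at 2.59. Whether this level belongs to the goat or to a kind of mural-like nucleus cannot be told apart, since no other goat had the subcluster. Subcluster 2, cumulus-like and present in all 4 goats, had KITLG at 546 ± 66.6 (471 to 602). The cumulus-like subclusters 4 and 5 had lower means of 222 ± 27.7 and 193 ± 52.9 (n = 3 each). The cumulus-like KITLG level of a goat thus depended on which subcluster its nuclei were in.

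**Figure D2:**
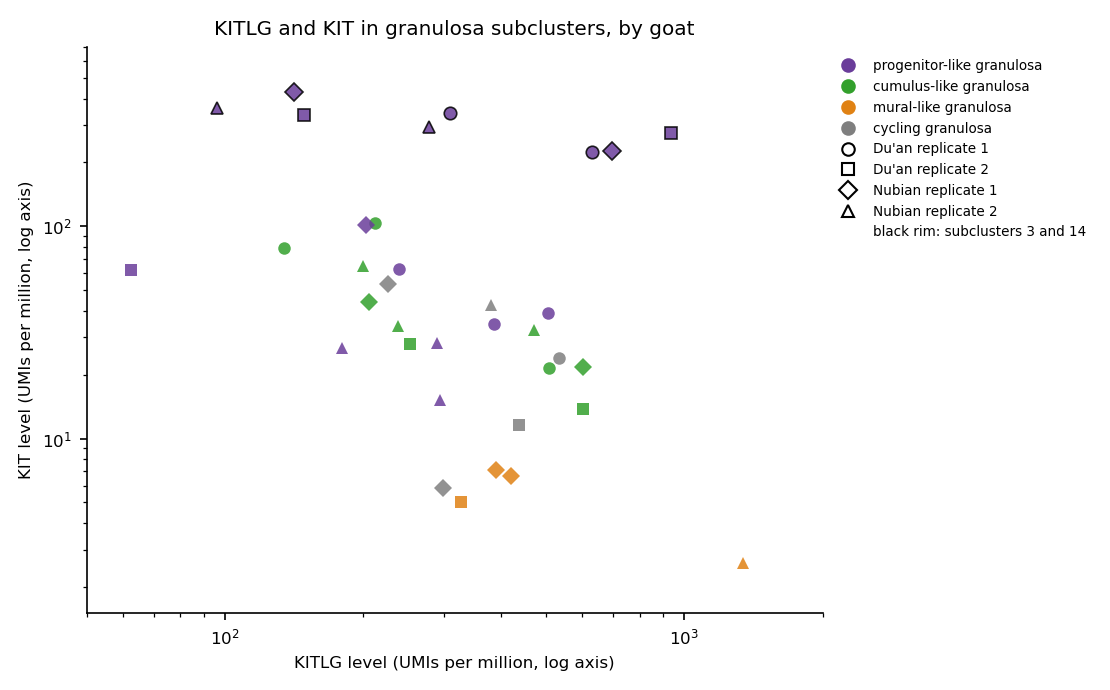
KITLG (horizontal) against KIT (vertical) in the granulosa subclusters, both as CPM on log axes. There is 1 point per named subcluster and goat with at least 20 nuclei. Cycling subcluster 12 in Du'an replicate 2 had no KIT UMI and is not drawn. Colour gives the granulosa state, shape the goat, and a black rim marks subclusters 3 and 14. The rimmed points fill the top from left to right, with KIT between 223 and 431 in all goats, and the mural-like points lie at the bottom right.

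The KIT level of the whole state moved with its make-up. Subclusters 3 and 14 were 38.8% and 78.4% of the progenitor-like GCs of the Du'an goats and 94.7% and 11.7% of those of the Nubian goats. The KIT level inside them was 226 and 304 in Du'an goats, 262 and 298 in Nubian goats, in subclusters that were picked for their KIT level. In the other progenitor-like GCs it was 36.4 and 118 in Du'an goats, 44.4 and 25.8 in Nubian goats, of which the second and the third value rest on only 56 and 35 nuclei. The goats with the lowest share of KIT-rich nuclei in the state, Nubian replicate 2 and Du'an replicate 1, were those with the lowest KIT level over the whole state. The whole level is made up of the picked subclusters and the rest. Its rise with their share therefore follows largely from the choice and is given as a description. With granulosa subclusters at a lower resolution (0.5), 2 subclusters with over 100 CPM of KIT held 9.11% of kept nuclei and 54.2% of the KIT UMIs. The KIT level inside them was then 123 and 298 in Du'an goats, 259 and 267 in Nubian goats, so that of Du'an replicate 1 depended on the resolution. At a higher resolution (1.2), 3 held 5.28% and 49.2%, with KIT levels from 227 to 312.

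**Figure D3:**
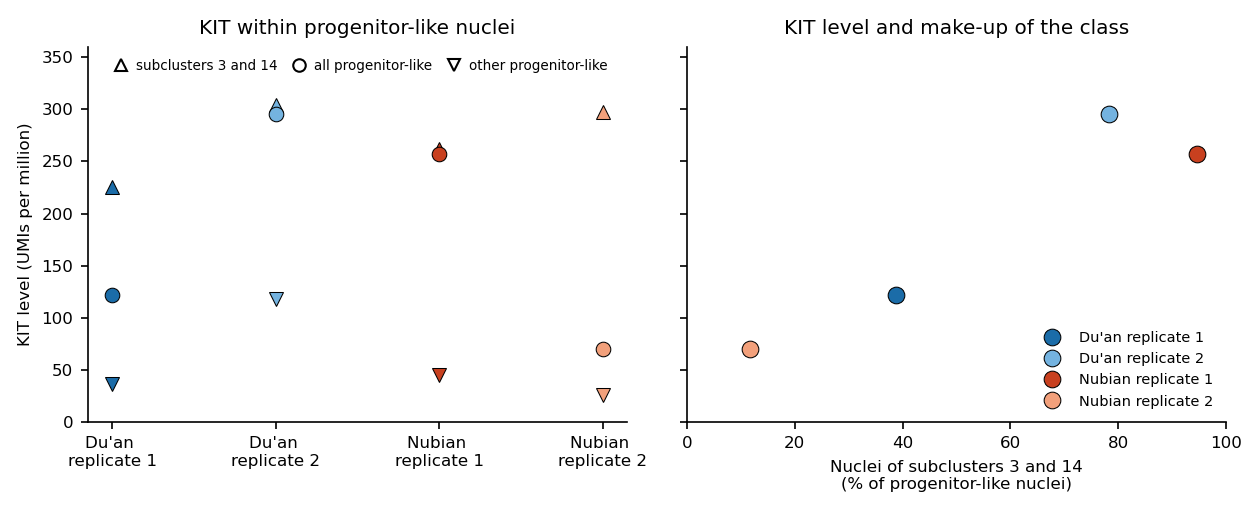
Left, the KIT level (CPM) in each goat for subclusters 3 and 14, for all progenitor-like nuclei and for the other progenitor-like nuclei. Right, the KIT level of all progenitor-like nuclei against the percent of them in subclusters 3 and 14, with 1 point per goat. The upper triangles lie between 226 and 304 in all goats, while the circles range from 69.4 to 296 and rank with the share of KIT-rich nuclei except among the highest pair. The subclusters were picked for their KIT level, so this ranking follows largely from the choice.

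Detection per nucleus was compared after each nucleus had been thinned to 1000 UMIs, and 3860 of 18584 Du'an and 6468 of 26150 Nubian nuclei were too shallow for this. A KIT UMI was then found in 8.50% and 16.0% of the progenitor-like GCs of Du'an goats, and in 18.4% and 4.20% for Nubian goats. It was found in 2.24% to 3.35% of cumulus-like GCs, 0.700% to 3.18% of cycling GCs and 0.272% to 0.899% of mural-like GCs. In macrophage-like nuclei, which should lack it, the share was 0.743% to 1.98%. Progenitor-like GCs were above this background in every goat, and mural-like GCs were within or below it. Unthinned, median depths were 3641 UMIs in progenitor-like, 4680 in mural-like and 1498.5 in macrophage-like nuclei. The unthinned means were 25.3% of progenitor-like and 2.24% of mural-like GCs.

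A KITLG UMI was found in 24.0% and 23.0% of the progenitor-like GCs of Du'an goats, and in 30% and 17.4% for Nubian goats. The range was 17.6% to 26.6% in cumulus-like GCs and 21.2% to 29.8% in cycling GCs. Mural-like GCs had 22.5% in Du'an replicate 2, 25.8% in Nubian replicate 1 and 47.7% in Nubian replicate 2. The background in T or natural killer-like nuclei (median 2234 UMIs unthinned) was 3.26% to 6.94%. All granulosa states were therefore well above the background for the ligand. The high level of the ligand in mural-like GCs of Nubian replicate 2 came with more positive nuclei as well.

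KIT was rarely abundant in a nucleus. Of 3006 kept nuclei with a KIT UMI, 172 had at least 8, and 143 of these were progenitor-like and 14 cumulus-like GCs. Ligand and receptor were found together in the same progenitor-like nucleus about as often as their separate shares would give. The observed share with both was 2.43%, 2.82%, 5.32% and 0.904% for the Du'an pair and then the Nubian pair, in replicate order, against products of 2.04%, 3.67%, 5.52% and 0.729%. The observed share was above the product in 2 goats and below it in 2. These counts are sparse and are given as a description.

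Cell types known for KIT other than theca cells were sought by their markers. Of the 10 oocyte markers, BMP15 and OOSP2 had no UMI in 48332 nuclei, which allows a share of up to 0.00621% of nuclei with a UMI (not of nuclei that express the gene), and GDF9 had 364 UMIs. Only 6 nuclei carried at least 2 oocyte markers, and they held 0.0998% of all KIT UMIs. The summed oocyte markers reached 3.82 to 9.07 CPM in progenitor-like GCs. Nuclei marked as those of oocytes, known carriers of the receptor in the follicle, were thus few, though a shallow nucleus can lack a UMI of a gene it expresses. Of 9 mast cell markers 6 were in the files, at least 2 of them were in 11 nuclei, and these held 0.00907% of the KIT UMIs. The summed mast cell markers were 0.378 to 0.698 in progenitor-like GCs.

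Innate lymphoid cells and luteal cells were checked in the same way. At least 2 of 4 innate lymphoid markers were in 391 nuclei, which held 3.67% of the KIT UMIs. Their KIT level was 111 CPM, and 140 of those kept were T or natural killer-like. The summed list was 109 to 252 CPM in progenitor-like GCs and 186 to 356 in T or natural killer-like nuclei. IL1R1, which is not particular to lymphoid cells, gave 15097 of the UMIs of this list. At least 2 of 4 luteal markers were in 3050 nuclei with 17.8% of the KIT UMIs, at a KIT level of 59.4 CPM. All 48332 nuclei held 11021 KIT UMIs among 225537272 UMIs. Finding 2 markers in a nucleus depends on its depth, so 17.8% is not the part of luteal cells in KIT. The summed luteal list was 96.0 to 312 in progenitor-like GCs and 179 to 510 in mural-like GCs. The part of either list in the KIT levels was not tested.

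In the deposited subtype table, KITLG was listed for common progenitor GCs, with the authors' pooled share of nuclei at 40.7% against 49.3% in the other GCs. For mural GCs it was listed at 53.9% against 43.1%, and for cumulus GCs it was not listed. In the deposited table of follicle stages it was listed for primordial GCs, at 40.7% against 50.6%, and for antral GCs, at 53.7% against 44.7%, but not for the primary and secondary stages. KIT was in neither table, whose genes all had a share of at least 25.1% in 1 of the groups compared. The classes built here gave pooled, unthinned KITLG shares of 39.2% against 51.2% for progenitor-like and 55.8% against 42.8% for mural-like GCs. For KIT the pooled share was 16.5% against 6.03% for progenitor-like GCs, under the lowest share in the tables. Pooled shares weight the goats by their nuclei and have no error over goats. Thinned to a common depth, progenitor-like GCs did not stand below the other states in every goat, as the shares above show.

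The comparison the study was made for, polytocous Nubian against monotocous Du'an goats, was tested within each of the 11 classes that had at least 20 nuclei in all 4 goats. By edgeR, 0 genes (0% in every class) were called in any of them, while 66 to 1122 genes per class had an unadjusted p under 0.05. DESeq2 called 0 to 263 genes per class. KITLG passed the filter on low counts in all 11 classes and KIT in 8, and neither was called in any. The lowest unadjusted p was 0.0279 for KITLG and 0.0869 for KIT.

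In progenitor-like GCs the KIT values of the breeds overlapped (122 and 296 in the Du'an, 257 and 69.4 in the Nubian goats), and the log2 difference of Nubian from Du'an goats was -0.41 ± 0.712 (edgeR adjusted p = 0.999). The KITLG difference there was -0.30 ± 0.408 (edgeR adjusted p = 0.999), with the breeds overlapping as well. In cumulus-like GCs the breeds did not overlap in KIT, with 25.4 and 31.0 in Du'an goats, 34.1 and 42.8 in Nubian goats. That difference was small, 0.40 ± 0.191 (edgeR adjusted p = 1.00). In cycling GCs the breeds did not overlap in KITLG, with 409 and 535 in Du'an goats, 290 and 384 in Nubian goats (-0.44 ± 0.247, edgeR adjusted p = 1.00).

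The largest breed difference of the ligand was in macrophage-like nuclei, at 21.1 and 41.1 in Du'an goats, 70.2 and 85.3 in Nubian goats. It was 1.16 ± 0.425 (edgeR adjusted p = 0.809), with no overlap, at levels near the background. Mural-like GCs could not be compared in this way because only 1 Du'an goat had them. The breeds did not overlap in 2 of 11 classes for KITLG and in 1 of 8 for KIT, while 23.8% to 46.9% of all genes tested in a class did not overlap. That share was 23.8% in progenitor-like, 27.5% in cumulus-like and 27.6% in cycling GCs. It was 46.9% in T or natural killer-like, 35.2% in pericyte-like, 34.2% in macrophage-like, 31.8% in lymphatic endothelial-like, 30.4% in smooth muscle-like, 28.2% in blood endothelial-like, 26.7% in theca-like and 26% in epithelial-like nuclei. The counts for the pair were thus no higher than this background. The 12 differences of the breed effect between granulosa states were not called either. In these comparisons 0% of the 13892 genes tested were called, so this sets neither gene apart. Those with mural-like GCs rest on 1 Du'an goat in that state. Between the other states the unadjusted edgeR p ranged from 0.292 to 0.913. For the thinned shares the exact permutation test of 2 goats against 2 cannot go below 0.333, and no class went below it.

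**Figure D4:**
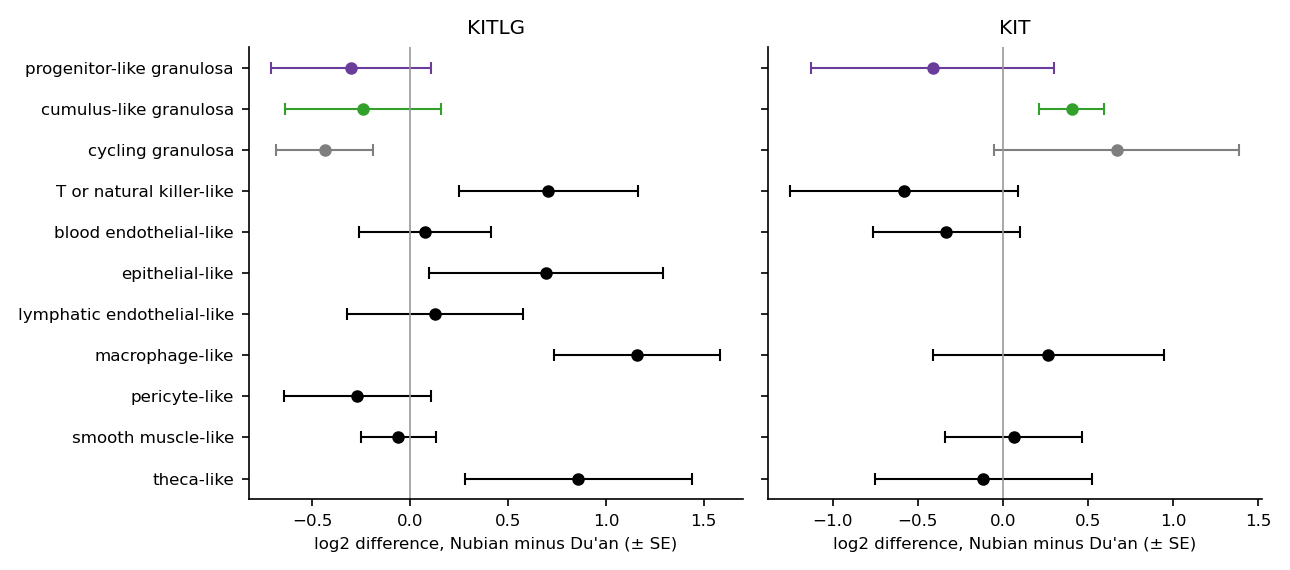
Log2 difference of Nubian from Du'an goats in KITLG (left) and KIT (right) in each class with sums in all 4 goats, with bars of 1 SE from the edgeR fit. Classes without a point did not pass the filter on low counts for that gene. The points lie on both sides of 0, and neither gene was called in any class.

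The relatives of KIT among the type III receptor tyrosine kinases each had another class as their highest. PDGFRA, a receptor for platelet-derived growth factors, was highest in smooth muscle-like nuclei (177 ± 30.02 CPM) among the classes found in more than 1 goat. In progenitor-like GCs its mean of 134 rested on Du'an replicate 2, at 394 against 34.2 to 63.6 in the other goats, and without that goat it was 47.8, below the 63.3 of theca-like nuclei. Fibroblast-like nuclei, left out of this order because they came from 1 goat, had PDGFRA at 315 and PDGFD at 558, above every class mean of these genes. PDGFRB was highest in pericyte-like nuclei (134 ± 9.602), and CSF1R and FLT3, receptors of myeloid cells and blood progenitors, were highest in macrophage-like nuclei (228 ± 70.1 and 32.0 ± 9.51). Of their ligands, PDGFC was highest in progenitor-like GCs (1594 ± 792), PDGFD in smooth muscle-like (530 ± 128), PDGFB in blood endothelial-like (59.0 ± 6.69) and PDGFA in pericyte-like nuclei (50.2 ± 19.6). IL34 was highest in pericyte-like (121 ± 101), CSF1 in macrophage-like (16.2 ± 11.3) and FLT3LG in T or natural killer-like nuclei (47.5 ± 26.6). The next class was close for CSF1 (14.6 in T or natural killer-like nuclei) and for PDGFC (1382 in epithelial-like nuclei). KIT was the 1 receptor of the 5 whose highest class was a granulosa state.

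Around the receptor, 67 of 68 genes in 7 lists were tested (STAT5A was not analysed here). Besides genes of KIT signalling, the lists hold the type III relatives of KIT with their ligands, and proteases that shed KIT ligand. In granulosa states against the other classes 18 were higher and 19 lower, with a median log2 difference of -0.06 against 0.06 over all genes, of which 30.3% were higher and 19.1% lower. With RLE factors 10 were higher and 31 lower, so the balance depended on the factors. In the PI3K-AKT list 9 of 16 were higher and 3 lower, in the RAS-MAPK list 3 of 14 were higher and 5 lower, and in the JAK-STAT and SRC list 0 of 9 were higher and 5 lower. Of 9 adaptors and phosphatases 3 were higher and 2 lower. Of 11 type III receptors and ligands 1 was higher and 3 lower, of 5 brakes 1 each, and of the target and shedding genes 1 of 3 was higher. These counts leave out differences that could not be called. CSF1R, FLT3, PDGFB, PDGFRB, PTPN6, SOCS1, HRAS and MMP9, 8 of the 67, had no UMI in at least 1 class, and none of them was called in this comparison. For CSF1R, at 228 CPM in macrophage-like nuclei and at most 1.21 in the mean of any granulosa state, the adjusted p was 1 with an SE too large to carry a test.

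Apart from CSF1, a ligand of the type III list, the genes with the largest differences belonged to the forward and the restraining side of the pathway alike. FOXO1, a transcription factor that AKT keeps out of the nucleus, was higher in granulosa states by 2.35 ± 0.125 (5.09-fold, edgeR adjusted p = 5.29e-20). CBLB, an E3 ubiquitin ligase that restrains receptor tyrosine kinases, was higher by 1.64 ± 0.082 (edgeR adjusted p = 7.95e-21). PIK3R1, the regulatory subunit of PI3 kinase, was higher by 1.30 ± 0.134 (edgeR adjusted p = 3.33e-11). On the lower side stood INPP5D, a lipid phosphatase of blood cells (-3.39 ± 0.393), CSF1 (-3.05 ± 0.488) and the SRC-family kinase LYN (-2.66 ± 0.429), with edgeR adjusted p of at most 1.05e-06. INPP5D was at 543 CPM in T or natural killer-like and 380 in macrophage-like nuclei, and LYN at 467 in macrophage-like nuclei, against at most 3.49 for INPP5D and 38.2 for LYN in any goat's progenitor-like, cumulus-like or mural-like GCs. INPP5D lost its call in 2 of 15 alternatives, among them the fit without Du'an replicate 2 (-2.93, adjusted p = 1). CSF1 lost its call without Nubian replicate 2 (-1.36, adjusted p = 1). In these fits without a goat, a class is left without any UMI of the gene. LYN lost its call in 1 of 15 alternatives. Over the alternatives the smallest differences were -0.56 for INPP5D and -1.25 for LYN.

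From progenitor-like to mural-like GCs, the pair of states that differed most in KIT, 4 of the 67 genes were higher and 21 lower, with a median of -0.22 against 0.00 over all genes (20.1% called, 8.26% higher and 11.9% lower). In the JAK-STAT and SRC list 7 of 9 were lower and 0 higher, among them FYN (-1.90 ± 0.282, edgeR adjusted p = 1.11e-06) and LYN (-2.41 ± 0.446, edgeR adjusted p = 4.88e-05), both SRC-family kinases. In the type III list 5 of 11 were lower and 0 higher. PDGFRA fell by 4.81 ± 0.572, from 134 ± 173 to 3.26 ± 1.77 CPM (edgeR adjusted p = 1.21e-08), and by 3.28 without Du'an replicate 2, still called. PDGFRB fell by 2.94 ± 0.568 (edgeR adjusted p = 9.84e-05) and CSF1 fell by 3.47 ± 0.847 (edgeR adjusted p = 0.0018), both from low levels of 10.2 and 4.72. Without Du'an replicate 2 the PDGFRB difference was -1.80 and still called (adjusted p = 0.0114). Without Nubian replicate 1 the CSF1 difference was -2.96 and not called (adjusted p = 0.0938). MITF, the transcription factor that KIT signalling is known to act on in melanocytes, fell by 2.38 ± 0.348 (edgeR adjusted p = 8.20e-07), and DUSP6, a phosphatase of ERK kinases, fell by 2.72 ± 0.443 (edgeR adjusted p = 5.96e-06). FYN, LYN, MITF and DUSP6 lie outside the rule by which the other genes were named and were chosen after their values were seen.

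Of the 4 that were higher in mural-like GCs, PIK3R1 went from 705 ± 280 to 1677 ± 398 CPM, a log2 difference of 1.13 ± 0.32 (edgeR adjusted p = 0.00756) that was not called without Du'an replicate 2 (1.01, adjusted p = 0.0869) or at a clustering resolution of 0.4 (0.63, adjusted p = 0.368). ADAM17, a protease known to release membrane-bound proteins that include KIT ligand, went from 55.6 ± 8.55 to 122 ± 55.2 (1.17 ± 0.233, edgeR adjusted p = 0.00015). It was higher in both Nubian goats, at 128 against 56.9 and 173 against 58.2, but in Du'an replicate 2 it was 63.7 in either state. In the PI3K-AKT list 3 of 16 were higher and 3 lower, and in the RAS-MAPK list 0 of 14 were higher and 2 lower. Of the adaptors and phosphatases 1 of 9 was lower, and of the brakes 1 of 5. In no class was any of the pathway genes called between the breeds.

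**Figure D5:**
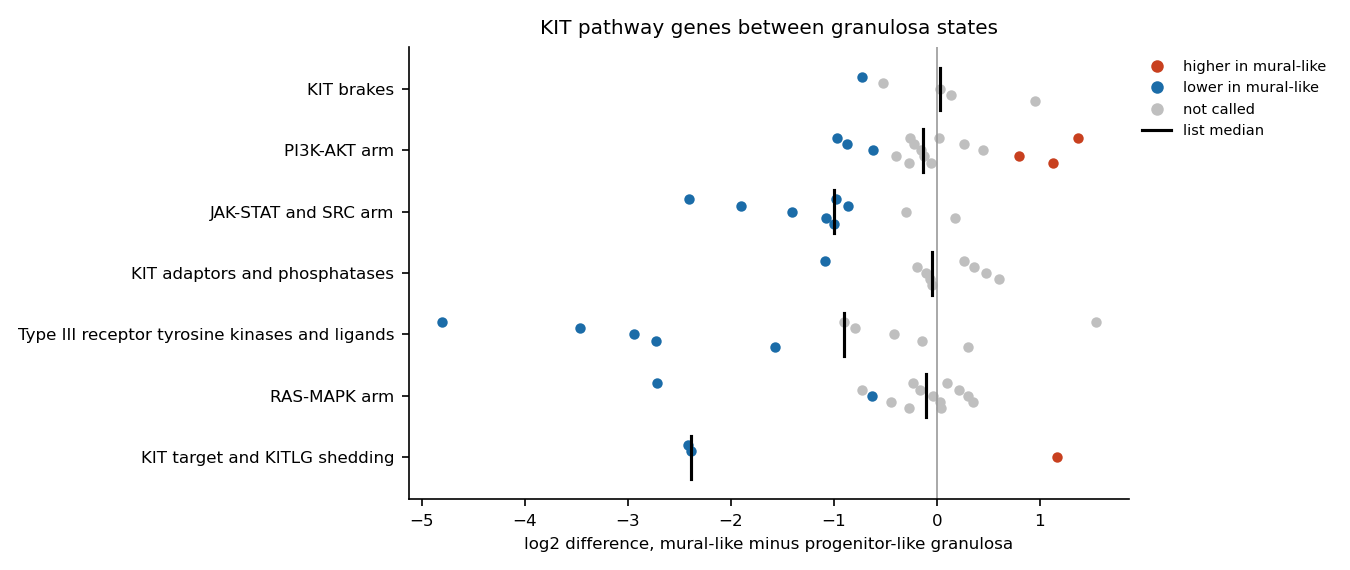
Log2 difference of mural-like from progenitor-like granulosa for the 67 tested genes of KIT signalling and of the type III relatives of KIT, by list. There is 1 point per gene, and the list median is a black bar. Red and blue points were called higher and lower in mural-like granulosa by edgeR and grey points were not called. All called points of the JAK-STAT and SRC list and of the type III list lie to the left of 0, whereas the PI3K-AKT list has called points on both sides.

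The genes whose pattern over classes was most like that of KITLG were sought among 13109 genes by Pearson's r of log2(mean CPM + 1) over the 13 classes with sums in at least 2 goats. They were SH3BP4 (r = 0.894), CCDC68 (0.893), SRPK2 (0.863), SORBS2 (0.838) and LOC102169849 (0.834). For KIT they were TMEM163 (0.816), ATXN7 (0.794), FOXN3 (0.792), ABTB2 (0.764) and TWIST1 (0.760). KITLG and KIT themselves had r = -0.07 and Spearman's rho = -0.11 over the same 13 classes. The classes share libraries and depth, so these values are descriptions. By Spearman's rho 1 of the 5 genes stayed among the 5 most alike for each of KITLG and KIT.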

How the data were processed

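KITLG, KIT and the lists of pathway genes were chosen with earlier results of these data known. The authors deposited 1 matrix per goat, with the UMI count of every gene in every nucleus, already restricted to nuclei and on the raw scale. The submitters' processing notes name Cell Ranger 5.0.0 and the matrix headers 3.1.0, and neither reads nor mapping were examined. The authors also deposited 2 tables of granulosa marker genes, in which the share of nuclei with a gene is given as a fraction, printed here as percent. The fold changes and p-values in these tables are the authors' own comparisons and were not used. The subtypes of these tables were set by the authors on the same nuclei with all genes, KITLG and KIT included. No genome of the goat was used, and no coordinates or sequences are given.

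Nuclei were kept within 2 SD of the mean UMI and gene counts of their library and at no more than 20% mitochondrial UMIs, and Scrublet (scanpy 1.11.5) ran at an expected rate of 10%. The kept nuclei had median depths of 1755 and 3292 UMIs (Du'an) and of 2207.5 and 1896.5 UMIs (Nubian). The 2000 variable genes excluded KITLG, KIT, the pathway lists and the markers. 30 principal components and 20 neighbours gave Leiden clusters (leidenalg 0.10.2) at a resolution of 0.8, and the granulosa set was split further, also at 0.8. A cluster entered the granulosa set where the genes of a deposited subtype (82, 99 or 199 genes whose share was at least 20 points higher in it) were on average at least 1.5 log2 units above the median cluster, and a subcluster took the subtype with the highest such mean. The limits for naming, and the resolution within the granulosa set, were set after seeing the data.

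UMIs were summed per goat and class, in sums of at least 20 nuclei. Classes and states were tested in 1 fit with edgeR 4.0.16 (quasi-likelihood test, TMM, filterByExpr, goat as a block), and breeds within each class. In fits with goat as a block, p-values set a class difference against its variation between goats, estimated over all classes in the fit. P-values of the breed comparisons within a class set the breed difference against the spread between the goats of a breed, which edgeR estimates with information from all genes. Intervals on single libraries cover counting error only. The test was checked on simulated counts that had the same spread for all genes and no differences between goats. That check does not cover genes that vary between goats as much as KITLG and KIT did. Alternatives were DESeq2 1.42.0, RLE factors, no filter, leaving out each goat, clustering resolutions of 0.4 and 1.2, removal of the 10% of nuclei with the highest doublet scores, a marker gate in place of clusters, sums of at least 50 nuclei, the replicate number as a block, and thinning to 500 UMIs. Chosen after seeing the data were the granulosa resolutions of 0.5 and 1.2 and a fit without the shallow subcluster 7.

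Named genes were, in each comparison, up to 3 genes per direction of the pathway lists with the largest called difference, each type III gene in its highest class, and the 5 genes most like KITLG and KIT among those with at least 10 CPM in a class. 1 gene that this rule names is not reported here.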

Additional observations from a re-analysis of the deposited data

Results flagged for a closer look

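In 2 of 28 sets of 4 goats, 1 goat lay farther from the others than the range of the group allows by Dixon's criterion, which chance alone does in about 1 group in 20. Both sets concern the ligand in Nubian replicate 1. In T or natural killer-like nuclei its KITLG level was 91.5 CPM against 35.3 to 42.8 in the other goats. In theca-like nuclei it was 125.9 against 43.2 to 48.9. Both classes were among the lowest for KITLG. The cause was not tested.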

How the results depend on the processing

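Of 797 recomputed values over 65 results, 733 kept their direction and their side of the threshold, or stayed within the spread or within 1.5 times a count. The limits are the number of goats and the depth: a breed comparison rests on 2 goats against 2, mural-like GCs on 3 goats, and KIT outside progenitor-like GCs on few UMIs per nucleus. The marker gate builds no granulosa states, so state comparisons were not run under it.

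The 5.72-fold, 31.2-fold and 8.96-fold lower KIT of cumulus-like, mural-like and cycling GCs against progenitor-like GCs and its higher level in that state were called under all alternatives that gave a value. KIT in granulosa states against the other classes lost its call with RLE factors (0.51). For KITLG, mural-like minus progenitor-like GCs ranged from -0.41 to 1.00 when 1 goat was left out. KITLG in cycling minus cumulus-like GCs was -0.12 at a resolution of 0.4. KITLG in mural-like against cumulus-like GCs was called at a resolution of 1.2 (1.13, adjusted p = 0.0432), with sums of at least 50 nuclei (1.03, adjusted p = 0.0475) and at a granulosa resolution of 0.5 (1.59, adjusted p = 0.00333), where cumulus-like minus progenitor-like GCs was called too (-1.03, adjusted p = 0.0462). KIT in cycling minus mural-like GCs was not called at a resolution of 0.4 (1.23, adjusted p = 0.116). For these changes the cause was not tested.

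Left-out goats turned several breed differences, none of which was called. The log2 difference of Nubian from Du'an goats then ranged for KITLG from -0.90 to 0.20 in cumulus-like and from -0.91 to 0.13 in progenitor-like GCs, and for KIT from -0.39 to 1.37 in cycling and from -1.62 to 0.33 in progenitor-like GCs. With the marker gate, KITLG in cycling GCs was at 0.13. The breed difference in the thinned share of progenitor-like GCs with KIT, -0.94 points, was 0.33 points after thinning to 500 UMIs and ranged from -8.04 to 6.15 points when 1 goat was left out.

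Counts of called genes moved more. Mural-like against progenitor-like GCs gave 2092 to 2914 when 1 goat was left out (2092 without Du'an replicate 2), against 3200 with all. Between breeds, where 0 were called, no filter on low counts gave 13, 9 and 176 genes in cumulus-like, cycling and progenitor-like GCs and DESeq2 15, 1 and 2, and leaving out 1 goat gave 0 to 5 in cumulus-like and 0 to 557 in cycling GCs (557 without Nubian replicate 2). Neighbouring classes called for KITLG went from 0 to 4 without the highest doublet scores and 3 with the marker gate, and for KIT from 1 to 0 at a resolution of 0.4 and with the marker gate, and to 2 at a granulosa resolution of 0.5.

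With the replicate number as a block (a paired fit of same-numbered goats), the KIT difference of Nubian from Du'an goats was 0.39 in cumulus-like, 0.54 in cycling and -0.57 in progenitor-like GCs, the KITLG difference was -0.32, -0.43 and -0.39, and 0 genes were called. The goats share only a number: the deviations of same-numbered goats correlated between -0.34 and 0.18 over 11 classes (median -0.07).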
